A study of Mus musculus with 6 samples.

Results

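The enzymes described here attach a polar group to drugs, hormones and waste products in the liver. They are the glutathione S-transferases (Gst), the UDP-glucuronosyltransferases (Ugt) and the sulfotransferases (Sult), taken as every gene symbol of the count files that begins with Gst plus a class letter and a digit, with Ugt1, Ugt2 or Ugt3 plus a letter, or with Sult1 to Sult7 plus a letter. The rule took 59 of 22609 genes, 21 Gst, 20 Ugt and 18 Sult. RNA of adult mouse liver was compared between 3 wild type libraries and 3 libraries of Igfbp7 knockout mice, all on the C57BL/6 strain. The knockout was made by Cre-loxP recombination and removes the gene for a secreted protein that binds insulin-like growth factors. The labels name no Cre driver for it and no sex, age in weeks or feeding state. Nothing in them says that the 3 libraries of a genotype came from separate animals, so p-values measure only the spread between these libraries.

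Conjugation is the second stage of the handling of foreign and endogenous chemicals, after oxidation by cytochromes P450. Gst enzymes join the thiol of glutathione to electrophiles, Ugt enzymes join glucuronic acid from UDP-glucuronic acid to hydroxyl and other groups, and Sult enzymes transfer sulfate from the donor PAPS. The products are more water-soluble and leave the hepatocyte through export pumps into bile or blood. Several of these genes are known targets of the xenobiotic receptor CAR (Nr1i3) and of the oxidant sensor NRF2, and some are known to differ between male and female mice.

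The libraries held 16712568 to 22419411 gene counts. Igfbp7 itself stood at 76.4, 79.7 and 60.9 CPM (counts scaled to the library's size and composition) in wild type and at 0.237, 0.109 and 0.442 CPM in knockout libraries 1 to 3, so each library matched its label (log2 fold change -8.05 ± 0.27 SE, adjusted p = 6.34e-06, edgeR). Xist had 0 to 5 counts and the Y-linked gene Ddx3y 1613 to 2537 counts in a library, so each library read as male although the labels name no sex. All 10 hepatocyte markers were present, with a summed level of 96028 to 115420 CPM in wild type and 108448 to 127928 CPM in knockout libraries. Kupffer cell and macrophage markers were fitted lower in 12 of 12 genes, with sums of 690 to 777 CPM against 363 to 569 CPM (0 called by edgeR, 12 at an unadjusted p under 0.05, 10 called by DESeq2). Sums were also apart for cholangiocyte markers, at 76.2 to 104 against 47.8 to 59.4 CPM, and for T, NK and B cell markers, at 8.70 to 10.6 against 4.66 to 6.72 CPM, and overlapped for endothelial and stellate cell markers. The cholangiocyte sum was mostly Spp1, at 90.1, 70.2 and 94.9 against 50.9, 42.0 and 51.5 CPM. Every other cholangiocyte marker overlapped between the genotypes. Of 7 tested T, NK and B cell markers 3 lay lower without overlap (10.1% of all tested genes). Cd4, the most abundant of them, overlapped at 3.93, 2.34 and 2.14 against 2.75, 2.78 and 1.23 CPM. The erythroid sum lay apart too, at 195 to 223 against 159 to 185 CPM, all of it Alas2. Pericentral hepatocyte genes, 8 of 11 of them fitted higher, summed to 9501 to 10357 CPM against 11205 to 15845 CPM. Most of that sum was Cyp2e1, at 6147, 6495 and 6150 CPM in wild type and 8417, 11573 and 7756 CPM in knockout libraries. Of the 11, 5 including Cyp2e1 lay higher without overlap (10.7% of all tested genes). Periportal genes, 5 of 9 fitted higher, summed to 10602 to 13498 CPM against 12355 to 16224 CPM, with overlap. Of 8 pancreatic acinar markers, Prss1, Prss2, Cpa1, Pnlip and Amy2a5 were at 0 counts in each library. The others were not all absent. Cela1 stood at 20.9 to 34.8 CPM and Cela2a at 0.374 to 1.04 CPM, and Ctrb1 was counted in wild type library 3 only (0.0577 CPM). A score of clock gene phase was lowest for wild type library 1, at -0.33, followed by wild type libraries 2 (2.42) and 3 (2.93). Each knockout library scored above these, from 3.17 to 3.78. The score thus went with genotype, and a fit that holds it as a covariate cannot fully separate the effects of genotype and score. The part of cell makeup, zonation and clock phase in the results below was not tested. In bulk liver, fewer cells of a type and less RNA per cell cannot be told apart.

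Sult1a1 and Sult1d1 were more abundant, and several mu-class Gst genes together with Ugt2b35 and Ugt2b38 less abundant, in every knockout library than in any wild type library, but no member passed the threshold across the genome. Of the 59 members, 40 had at least 10 counts in 3 or more libraries, and the same 40 entered the test. By edgeR's quasi-likelihood test 0 of these 40 had an adjusted p under 0.05, where 0.216% of all 12522 tested genes did (0.128% higher, 0.0878% lower). At an unadjusted p under 0.05 there were 8 higher (8.1% of all tested genes) and 6 lower (7.35%), which makes 35% of the members against 15.4% of all tested genes. DESeq2 called 2 higher, Sult1a1 and Sult1d1, and 4 lower, Gstm2, Gstm4, Ugt2b35 and Ugt2b38, or 15% of the members against 3.5% of all tested genes (1.84% higher, 1.66% lower). The 3 knockout values lay wholly above the 3 wild type values in 7 members (10.7% of all tested genes) and wholly below them in 6 (10.1%), in all 32.5% of the members against 20.7%. The members were not compared with genes of matched level. Of the 40, 25 were fitted higher, where 50.3% of all tested genes were. The fitted log2 fold changes ran from -0.73 to 1.89 with a median of 0.09, and a median size regardless of sign of 0.26, against 0.00 and 0.15 over all tested genes. A member that is scarce in both genotypes was filtered out, so these figures describe the 40 and not the 59.

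**Figure D1:**
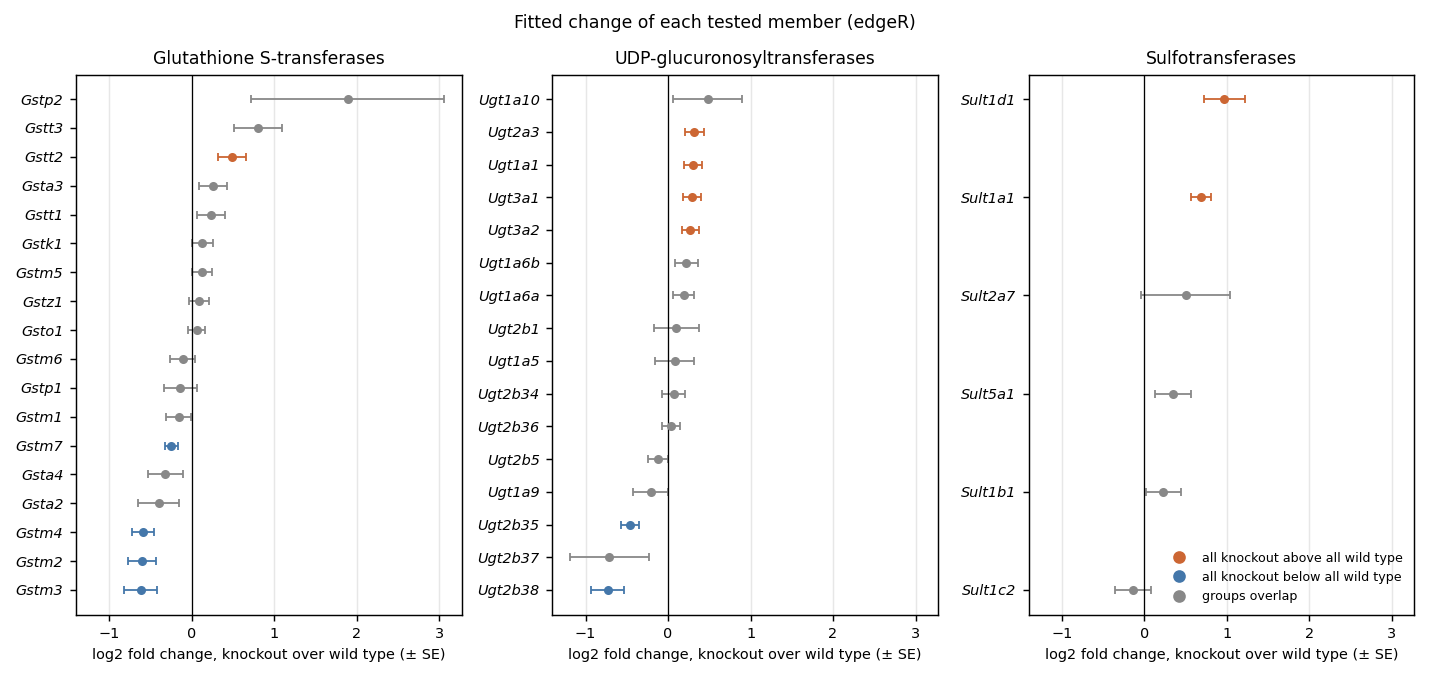
Fitted log2 fold change of knockout over wild type (horizontal axis, error bar: SE) for the 40 tested members, in a panel for each of the Gst, Ugt and Sult families. Colours mark whether the 3 knockout libraries all lie above, all lie below or overlap the 3 wild type libraries. The values run from -0.73 for Ugt2b38 to 1.89 for Gstp2, whose error bar is the widest.

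Among the sulfotransferases, Sult1a1, which sulfates phenols, had the lowest p of all members. Its level was 148, 184 and 152 CPM in wild type and 243, 255 and 285 CPM in knockout libraries 1 to 3. The lowest knockout library lay above the highest wild type library. The means were 161 ± 20.1 and 261 ± 21.7 CPM (SD, n = 3 each), a ratio of 1.62. The log2 fold change was 0.69 ± 0.12 (SE, adjusted p = 0.0596 by edgeR). DESeq2 gave an adjusted p of 3.63e-05, edgeR with no filter on low counts 0.0312, and edgeR with the clock score as a covariate 0.522, the highest of the alternatives run. In the mouse annotation GRCm38.p6 Sult1a1 overlaps Gm6939 and Slx1b, and 6.58% of the 50-base stretches of its transcripts also occur in Gm6939, so reads from these stretches can be assigned to either gene or to none.

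Sult1d1, a sulfotransferase of catecholamines and other small amines and phenols in the mouse, was at 88.9, 118 and 97.3 CPM in wild type and at 131, 281 and 182 CPM in knockout libraries. The groups did not overlap, but the knockout libraries differed among themselves by more than the distance between the genotypes' nearest libraries. The log2 fold change was 0.97 ± 0.25 (SE, adjusted p = 0.134 by edgeR, 0.00299 by DESeq2). Without knockout library 2 it was 0.63, and without wild type library 1 it was 0.88. Knockout library 2 also had the lowest Kupffer cell marker sum, 363 CPM, and the highest pericentral sum, 15845 CPM, of which Cyp2e1 made 11573 CPM.

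The other tested sulfotransferases overlapped between genotypes. Sult1b1, which sulfates thyroid hormones, ran from 30.3 to 39.7 CPM in wild type and was at 32.8, 55.1 and 32.7 CPM in knockout libraries, where library 2 alone stood above the wild type range. Sult5a1 was at 17.7, 20.1 and 12.5 CPM against 26.4, 22.1 and 15.9 CPM, Sult1c2 at 3.60 ± 0.91 against 3.28 ± 0.32 CPM, and Sult2a7 at 0.895 ± 0.463 against 1.30 ± 0.91 CPM (SD, n = 3 each). Their fitted changes did not pass (edgeR adjusted p of 0.484 to 0.817). Summed over the family, the level was 291, 368 and 296 CPM in wild type and 438, 624 and 520 CPM in knockout libraries. That ratio of 1.66 rested on Sult1a1 and Sult1d1, which together made 263 ± 35 and 459 ± 81.2 CPM (SD, n = 3 each). Sult1a1 held a mean share of 50.7% ± 0.66 of the family's counts in wild type and of 50.4% ± 8.24 in knockout livers (SD, n = 3 each), the latter with 40.9% in library 2.

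Sult1e1, the estrogen sulfotransferase, had 0, 0 and 2 counts in wild type libraries and 2, 90 and 3 counts in knockout libraries. Its level in knockout library 2 was 4.91 CPM, with 10 counts reached in that library only, so it was not tested and no fold is given. Sult3a1, an amine sulfotransferase known to be female-predominant in mouse liver, and the hydroxysteroid sulfotransferases Sult2a1 and Sult2a2, also female-predominant, were listed at 0 in each library. So were Sult2a3, Sult2a4, Sult2a5, Sult2a6, Sult1c1 and Ugt2a2, which makes 9 members with no count at all. A count of 0 allows up to 0.14 to 0.173 CPM depending on the library (3 counts, counting error only). The globin genes Hba-a1, Hba-a2, Hbb-b1 and Hbb-b2 were listed at 0 as well, although the erythroid gene Alas2 stood at 159 to 223 CPM, so for genes with close copies a 0 may not mean absence. Between 6.63% and 62.1% of the 50-base stretches of Sult2a1 to Sult2a6 occurred in other genes, with 6.15% for Sult3a1. All libraries read as male by Xist and Ddx3y, and the part of sex in the 0 counts of the female-predominant members was not tested. A further 10 members had counts but too few to be tested, among them Gsta1 with 0 to 8 counts, Gsto2 with 0 to 5, Ugt1a2 with 1 to 6 and Ugt1a7c with 1 to 5. The others were Gstt4, Sult2b1, Sult4a1, Sult6b1 and Ugt2a1, each with 0 to 3 counts in a library, and Sult1e1.

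**Figure D2:**
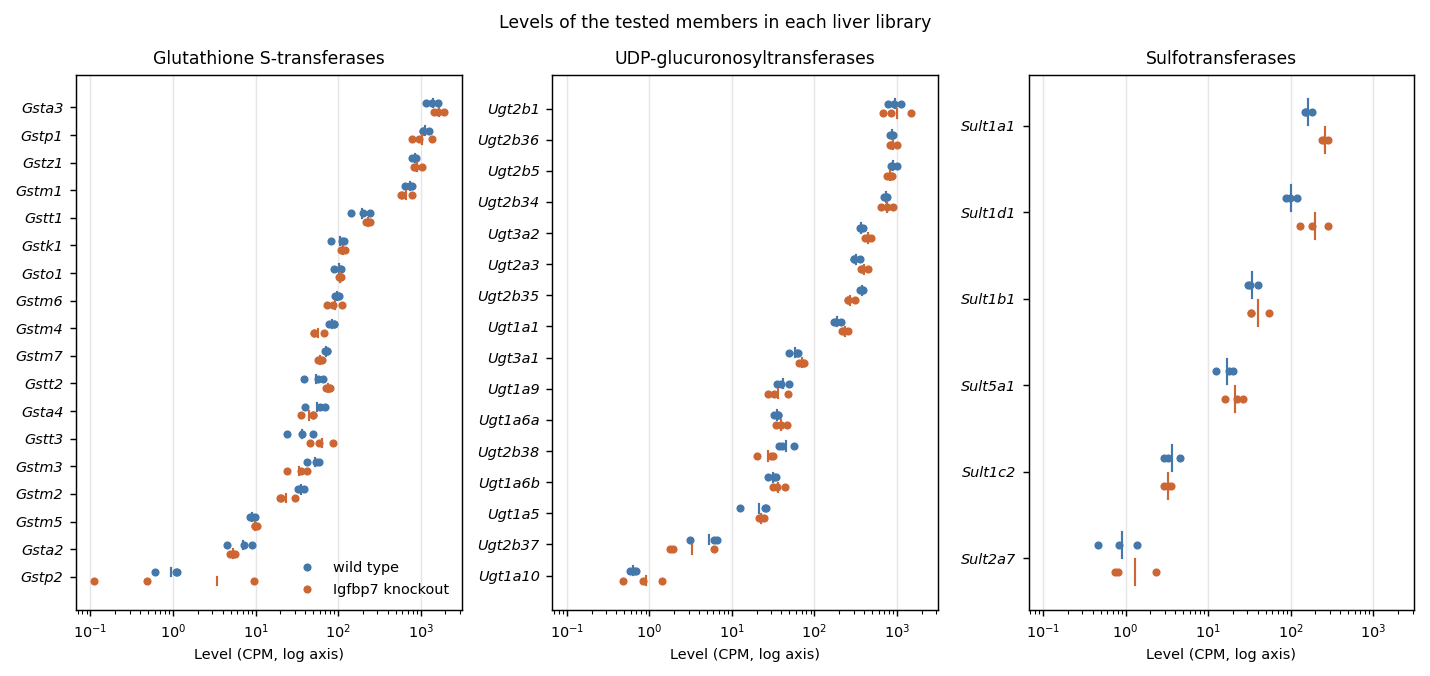
Level of the 40 tested members in CPM (horizontal axis, logarithmic) in each of the 3 wild type and 3 knockout libraries, with a tick at the group mean. Sult1a1 and Sult1d1 show separate groups, and Gstp2 spreads from 0.109 to 9.61 CPM among the knockout libraries.

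The mu-class glutathione S-transferases lie next to each other on chromosome 3, and 6 of the 7 were fitted lower in the knockout livers, where 50.3% of all tested genes were fitted higher. Of the 7, 4 lay lower without overlap between the genotypes (10.1% of all tested genes). Gstm4 was at 89.4, 88.5 and 77.6 CPM in wild type and at 67.4, 51.5 and 51.2 CPM in knockout libraries. The highest knockout library lay under the lowest wild type library. Its log2 fold change was -0.59 ± 0.13 (SE, adjusted p = 0.0933 by edgeR, 0.00496 by DESeq2), and none of its 50-base stretches occurred in another gene.

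Gstm2 was at 34.3, 38.9 and 33.0 CPM against 19.9, 30.2 and 20.3 CPM, a log2 fold change of -0.60 ± 0.17 (SE, adjusted p = 0.155 by edgeR, 0.0383 by DESeq2). Gstm3 was at 42.5, 53.7 and 59.5 CPM against 35.6, 41.6 and 24.2 CPM, with -0.62 ± 0.20 (SE, adjusted p = 0.195 by edgeR). In both genes knockout library 2 came nearest to the wild type range. The gap between the genotypes was narrowest in Gstm3, where 42.5 CPM in wild type library 1 stood beside 41.6 CPM in knockout library 2.

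Gstm7 differed least in size of these 4 genes, at 73.6, 72.6 and 68.9 CPM against 59.9, 64.0 and 56.5 CPM (log2 fold change -0.25 ± 0.08 SE, adjusted p = 0.208 by edgeR). Gstm1, the most abundant mu-class gene and a conjugator of aryl halides and epoxides, overlapped between the genotypes at 656, 793 and 754 CPM against 793, 587 and 593 CPM. Gstm6 had a log2 fold change of -0.11, which was 0.03 without knockout library 3, and Gstm5, the 1 mu-class gene fitted higher, 0.12. Along the chromosome in GRCm38.p6 the order was Gstm5, Gstm7, Gstm6, Gstm3, Gstm2, Gstm1 and Gstm4, with no other protein-coding gene between them, so the 4 genes without overlap were not all neighbours. Gstm3 and Gstm1 share 28.8% and 19.9% of their 50-base stretches with other genes, among them each other, and reads there can be assigned to another copy or left out. The summed mu-class level was 1085 ± 75 CPM for wild type against 932 ± 126 CPM for knockout (SD, n = 3 each), with overlap, and Gstm1 alone held 734 ± 70.6 and 658 ± 117 CPM of it.

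**Figure D3:**
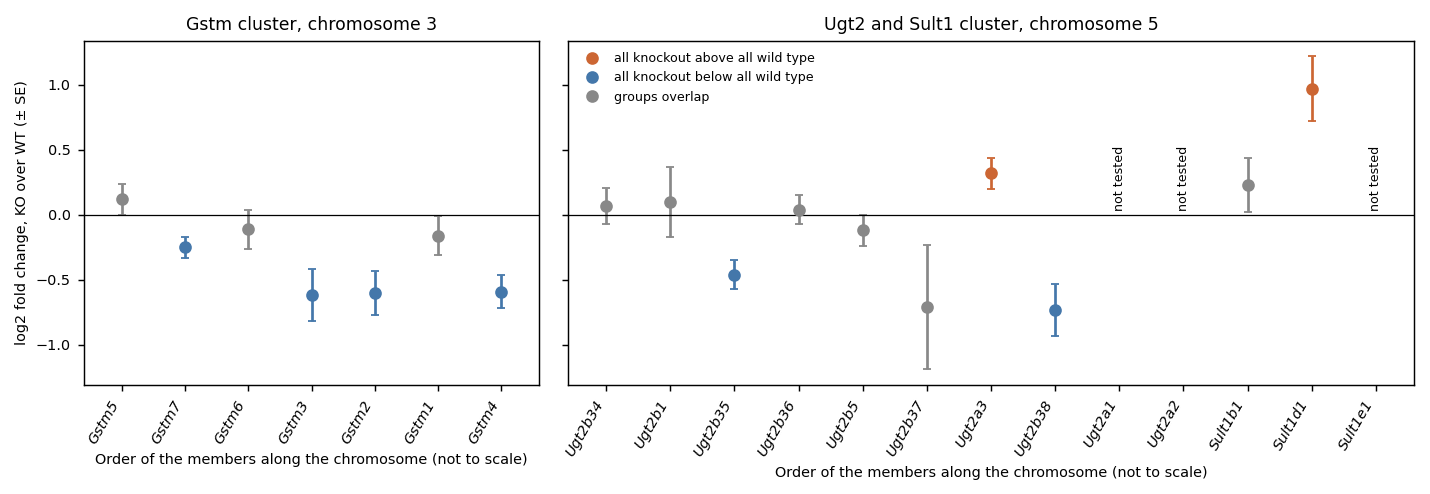
Fitted log2 fold change (vertical axis, error bar: SE) of the members of the Gstm cluster on chromosome 3 and of the Ugt2 and Sult1 cluster on chromosome 5, in their order along the chromosome and not to scale. In the chromosome 5 cluster, Ugt2b38 at -0.73 lies beside Ugt2a3 at 0.32, and Sult1d1 stands highest at 0.97.

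The theta-class genes, which act on small halogenated compounds, were fitted higher. Gstt2 and Gstt3 are named here after their values were seen. Gstt2 was at 39.1, 65.8 and 57.3 CPM in wild type and at 79.6, 70.8 and 77.9 CPM in knockout libraries, without overlap (log2 fold change 0.49 ± 0.17 SE, adjusted p = 0.225 by edgeR). Without wild type library 1, its lowest library, the value was 0.31, and with the clock score as a covariate it was 0.17. Of the 50-base stretches of Gstt3 20.6% occur in other genes. Gstt3 was at 36.1, 49.9 and 24.1 CPM against 45.1, 87.7 and 59.4 CPM, with 1 knockout library inside the wild type range, and its log2 fold change of 0.80 was 0.51 without knockout library 2. Gstt1 overlapped at 202, 245 and 145 CPM against 228, 244 and 220 CPM.

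The most abundant Gst members did not separate the genotypes. Gsta3, the main alpha-class enzyme of mouse liver, known for detoxifying aflatoxin epoxide, was at 1648, 1386 and 1167 CPM against 1455, 1938 and 1628 CPM (log2 fold change 0.26 ± 0.17 SE), and its value was 0.14 without knockout library 2 or without wild type library 3. Gstz1, the maleylacetoacetate isomerase of tyrosine breakdown, which overlaps Pomt2, was at 849 ± 48.6 and 905 ± 108 CPM, and the organelle enzyme Gstk1 at 104 ± 19.1 and 114 ± 5.59 CPM (SD, n = 3 each). Gsta4, which conjugates the lipid peroxidation product hydroxynonenal, was at 56.3 ± 15.5 and 45.1 ± 8.35 CPM, and Gsta2 at 6.97 ± 2.36 and 5.29 ± 0.373 CPM (SD, n = 3 each). Per kilobase of longest coding transcript, the order in wild type livers was Gstp1 at 1391 ± 147, Gsta3 at 961 ± 165, Gstm1 at 570 ± 54.8 and Gstz1 at 513 ± 29.3 CPM per kilobase (SD, n = 3 each). The last 2 of these differed by less than the sum of their spreads. Gstp1 and Gstm1 share 51% and 19.9% of their 50-base stretches with other genes. Their levels per kilobase may therefore rest on a part of the transcript, which makes this order uncertain.

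Gstp1, the pi-class enzyme known to be male-predominant in mouse liver, was at 1072, 1073 and 1282 CPM in wild type and at 1367, 963 and 777 CPM in knockout libraries. The knockout libraries lay on both sides of the wild type range. Gstp2, its near copy, had 21, 13 and 19 counts in wild type libraries and 203, 2 and 10 counts in knockout libraries, so knockout library 1 alone was high. Its fitted log2 fold change of 1.89 ± 1.17 (SE) became -1.58 without knockout library 1. Of the 50-base stretches of Gstp1 51% and of Gstp2 50.4% occurred in another gene, which were each other and a Gstp pseudogene. Knockout library 1 also had the highest level of Gstp1.

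Among the glucuronosyltransferases, 4 of the 16 tested members lay higher without overlap (10.7% of all tested genes), by log2 fold changes of 0.27 to 0.32, and 2 lay lower (10.1%), by -0.46 and -0.73. Ugt1a1, the bilirubin-conjugating enzyme, was at 172, 210 and 184 CPM in wild type and at 253, 231 and 214 CPM in knockout libraries, with 210 and 214 CPM as the nearest libraries. Its log2 fold change was 0.30 ± 0.11 (SE, adjusted p = 0.242 by edgeR). Ugt2a3, known to conjugate bile acids, was at 302, 354 and 304 CPM against 368, 451 and 377 CPM (0.32 ± 0.12 SE, adjusted p = 0.25 by edgeR).

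The Ugt3a enzymes use other sugar donors than glucuronic acid. Ugt3a2 was at 387, 366 and 355 CPM against 441, 482 and 413 CPM (log2 fold change 0.27 ± 0.10 SE, adjusted p = 0.25 by edgeR). Ugt3a1, its neighbour on chromosome 15 and named after its values were seen, was at 63.7, 61.5 and 49.4 CPM against 65.7, 72.7 and 74.6 CPM (0.29 ± 0.11 SE, adjusted p = 0.281 by edgeR), and its value was 0.18 without wild type library 3. Both pairs of groups were separate, and the sum of the pair was 427 ± 23.1 and 516 ± 34.6 CPM (SD, n = 3 each).

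Ugt2b35, a steroid- and drug-conjugating enzyme of the liver, was lower, at 394, 375 and 358 CPM in wild type and 255, 311 and 256 CPM in knockout libraries. Every knockout library was under the lowest wild type library, with a log2 fold change of -0.46 ± 0.11 (SE, adjusted p = 0.12 by edgeR, 0.0107 by DESeq2). Its share of all Ugt counts was 7.78%, 7.78% and 7.24% against 5.36%, 5.19% and 5.66%, so the share separated the genotypes as well. Only 0.303% of its 50-base stretches occurred in other genes. Ugt2b38 was at 41.1, 37.7 and 56.1 CPM against 29.5, 31.5 and 20.4 CPM (-0.73 ± 0.20 SE, adjusted p = 0.142 by edgeR, 0.0167 by DESeq2). It shares 37.4% of its 50-base stretches with Ugt2b5, Ugt2b37 and Ugt2b36, of which Ugt2b5 and Ugt2b36 are far more abundant. Ugt2b37, which shares stretches with the same gene, was at 6.17, 3.13 and 6.64 CPM against 1.94, 6.11 and 1.77 CPM and overlapped.

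The 4 highest Ugt2b genes overlapped between genotypes. Ugt2b1 was at 1121, 786 and 923 CPM against 847, 1497 and 684 CPM, so knockout libraries 2 and 3 marked both ends of its range. Ugt2b36 stood at 872 ± 35.5 and 893 ± 90.8 CPM, Ugt2b5 at 904 ± 79 and 831 ± 59.9 CPM, and Ugt2b34 at 731 ± 32.1 and 765 ± 126 CPM (SD, n = 3 each). Per kilobase, Ugt2b5 at 486 ± 42.3 and Ugt2b36 at 462 ± 18.9 CPM per kilobase led in wild type livers and did not differ beyond their spread, followed by Ugt2b1 at 367 ± 65.5 and Ugt2b34 at 170 ± 7.45 (SD, n = 3 each). Of the 50-base stretches of Ugt2b5 41.7% occur in other genes, against 0.31% for Ugt2b36. Alignments that were not unique were left out, so the level of Ugt2b5 may rest on a part of its transcript and its order beside Ugt2b36 is uncertain.

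The Ugt1a genes overlap on chromosome 1 and have shared downstream exons, with 54.2% to 96% of their 50-base stretches found in other genes. The counting of reads in the shared exons is unknown here, so each Ugt1a level may rest on a part of its transcript, and no Ugt1a level is set against another gene. Beside Ugt1a1, the phenol-conjugating Ugt1a6a was at 34.9 ± 1.89 and 39.9 ± 6.50 CPM and Ugt1a9, which takes bulkier phenols, at 41.4 ± 7.61 and 35.9 ± 10.5 CPM (SD, n = 3 each), both with overlap. Ugt1a5, Ugt1a6b and Ugt1a10 had log2 fold changes of 0.08, 0.22 and 0.48 and overlapped too, as did Gsto1, the dehydroascorbate-reducing member of the Gst family, at 0.06. With 1 library left out, Ugt1a5 came to -0.18 (without wild type 3), Ugt1a6b to 0.07 (without knockout 1), Ugt1a10 to 0.02 (without knockout 2) and Gsto1 to -0.02 (without wild type 1). The family sum was 4942 ± 120 and 5088 ± 785 CPM for Ugt and 5036 ± 186 and 5191 ± 424 CPM for Gst (SD, n = 3 each), so within both families the genotypes overlapped in total while single members lay apart.

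**Figure D4:**
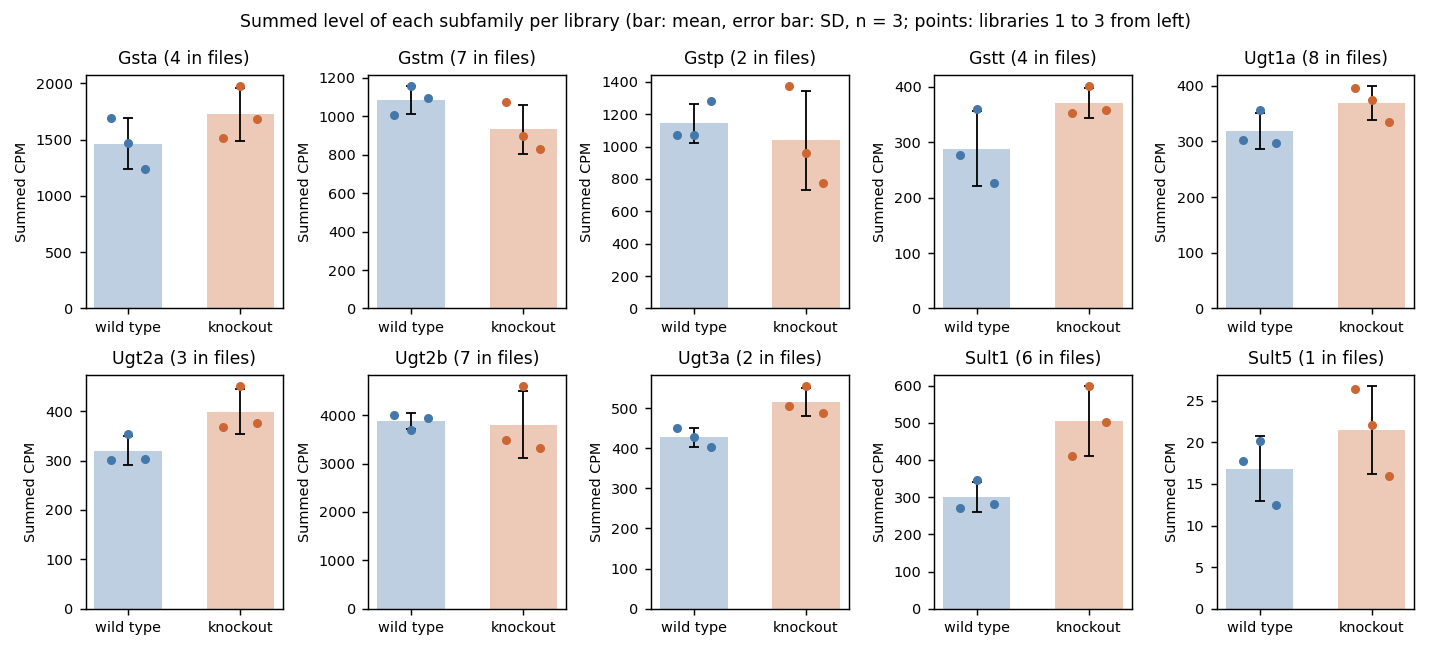
Summed CPM of 10 subfamilies in wild type and knockout livers (vertical axes from 0, bar: mean, error bar: SD, n = 3, points: libraries 1 to 3 from left to right). The Sult1 sum of 301 ± 40.4 against 504 ± 94.3 CPM shows the widest relative distance of the panels, and the Ugt2b sums overlap.

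The 14 members with an unadjusted p under 0.05 are those without overlap and Gstt3. Separate groups keep their sign when a library is left out, so only the size of the change is informative there. The widest ranges were those of Sult1d1, from 0.63 to 1.19, and Gstt3, from 0.51 to 1.08 (log2 fold change). Of all 40 tested members, 29 moved by over 1.5 times or turned sign with some library left out. The members that did not were Gstm2, Gstm3, Gstm4, Gstm5, Gstm7, Sult1a1, Ugt1a1, Ugt2a3, Ugt2b35, Ugt2b38 and Ugt3a2.

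**Figure D5:**
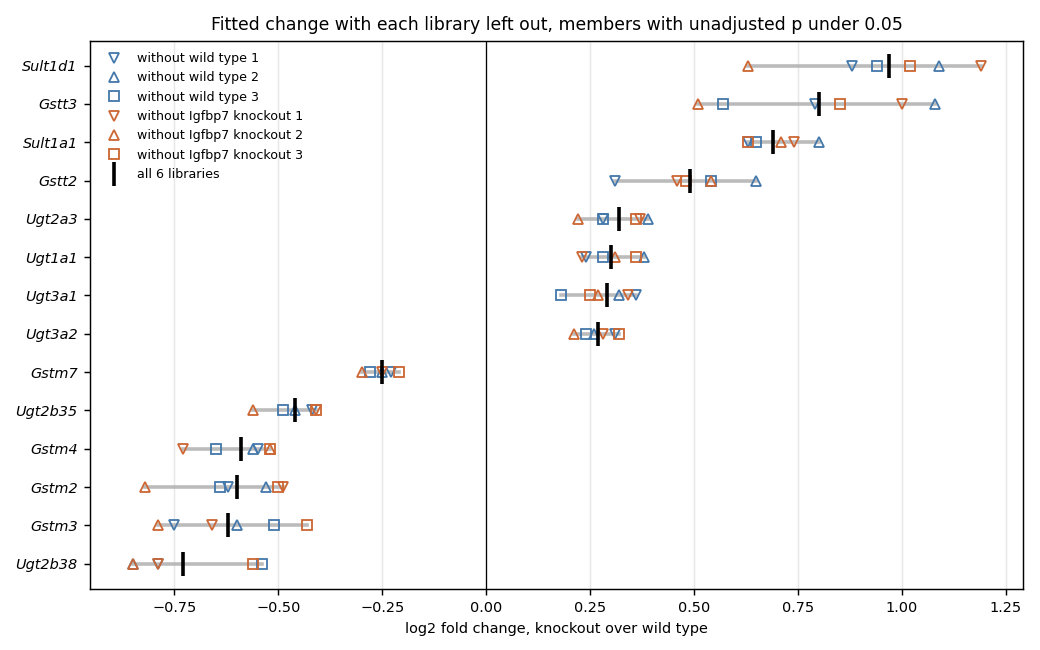
Fitted log2 fold change (horizontal axis) of the 14 members with an unadjusted p under 0.05, with all 6 libraries (black mark) and with each library left out in turn (symbols). The distance between symbols shows how far 1 library moves the size, and Sult1d1 spans 0.63 to 1.19.

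The upstream sequences of members whose genotypes lay apart are shown because those that were higher shared a short motif. The 250 bases before the transcription start are from RefSeq (GRCm38.p6, which is not the build named for the counts). Of the 59 members 51 have a promoter window of 300 bases in that table, which runs from 250 bases before to 50 bases after the start. Capitals mark GTTAAT on either strand, written ATTAAC where it lies on the other strand. The windows of members higher in every knockout library read as follows.
Sult1a1, GRCm38.p6, chr7:126676419-126676668, minus strand: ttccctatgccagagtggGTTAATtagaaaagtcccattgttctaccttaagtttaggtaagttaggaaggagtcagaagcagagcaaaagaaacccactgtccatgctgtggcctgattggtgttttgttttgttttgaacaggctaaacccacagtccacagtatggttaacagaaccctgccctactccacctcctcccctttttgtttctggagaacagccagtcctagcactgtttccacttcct
Sult1d1, GRCm38.p6, chr5:87569007-87569256, minus strand: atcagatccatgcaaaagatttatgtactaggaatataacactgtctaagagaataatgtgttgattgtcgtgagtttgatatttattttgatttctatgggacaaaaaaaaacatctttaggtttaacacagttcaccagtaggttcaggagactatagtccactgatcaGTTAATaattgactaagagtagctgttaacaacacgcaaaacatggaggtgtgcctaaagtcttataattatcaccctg
Ugt1a1, GRCm38.p6, chr1:88211709-88211958, plus strand: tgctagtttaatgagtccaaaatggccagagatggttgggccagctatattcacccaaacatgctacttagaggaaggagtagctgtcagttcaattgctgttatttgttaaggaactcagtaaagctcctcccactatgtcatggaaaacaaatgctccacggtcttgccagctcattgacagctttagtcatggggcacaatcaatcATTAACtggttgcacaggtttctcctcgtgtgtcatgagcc
Ugt2a3, GRCm38.p6, chr5:87337196-87337445, minus strand: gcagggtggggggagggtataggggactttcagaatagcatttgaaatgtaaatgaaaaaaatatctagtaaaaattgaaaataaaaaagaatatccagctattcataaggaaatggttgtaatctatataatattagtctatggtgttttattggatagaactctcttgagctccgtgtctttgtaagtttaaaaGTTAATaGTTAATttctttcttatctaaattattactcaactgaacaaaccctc
Ugt3a1, GRCm38.p6, chr15:9279579-9279828, plus strand: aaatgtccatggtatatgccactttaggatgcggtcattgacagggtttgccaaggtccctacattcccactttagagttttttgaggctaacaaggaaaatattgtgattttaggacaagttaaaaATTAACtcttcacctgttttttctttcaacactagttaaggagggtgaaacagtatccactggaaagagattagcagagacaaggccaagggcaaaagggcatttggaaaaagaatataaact

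All 5 of these members held the motif, at positions -227 in Sult1a1, -74 in Sult1d1, -36 in Ugt1a1, -49 and -42 in Ugt2a3 and -118 in Ugt3a1, counted from the start site to the last base of the match. Gstt2 and Ugt3a2, the other members higher without overlap, had no window. Of the 6 members lower without overlap 0 held it, of the 24 tested members with overlap 4 did, and of the 16 untested members with a window 4 did, Sult2a3, Sult2a4, Sult2a5 and Sult2a6, which were listed at 0. Over all member windows 13 of 61 held it, 21.3% against 7.1% of all windows. Ugt2b35 is shown for the lower members.
Ugt2b35, GRCm38.p6, chr5:87000610-87000859, plus strand: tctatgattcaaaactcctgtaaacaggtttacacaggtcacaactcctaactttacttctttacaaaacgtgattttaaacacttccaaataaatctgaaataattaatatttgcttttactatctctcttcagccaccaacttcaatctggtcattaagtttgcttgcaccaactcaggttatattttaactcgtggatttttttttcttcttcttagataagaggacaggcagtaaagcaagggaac

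Over all tested genes with a window, GTTAAT was present for 6.87% of 931 higher without overlap, 5.33% of 900 lower without overlap and 5.79% of 7127 with overlap (7.1% is the share over all 32851 windows). The 5 members were picked out by their measured levels, so the match is a description of these windows and no test was made. The antioxidant response element TGACNNNGC was in 3 of 61 member windows, 4.92% against 12.4% of all windows, and these were of Gsta3, Gstm5 and Gstm7. The D-box TTATGTAA was in 1 member window, that of Ugt2b1 (0.938% of all windows), and the HNF4 motif CAAAGTCCA in 1, of Sult1b1 (0.475%). A direct repeat of AGGTCA or AGTTCA with 4 bases between the copies was in 0 member windows and in 0.0274% of all windows. All motifs were searched on both strands, and none of the matches in member windows overlapped another.

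Of 18 genes listed with the regulators of these enzymes, Nr1i3 and Por rose in the knockout livers, the 2 that passed the test (0.216% of all tested genes). Of these 2, Nr1i3 is a regulator, and Por is an enzyme kept in the same list. Nr1i3, the receptor CAR, was at 50.7, 48.4 and 55.9 CPM in wild type and at 111, 147 and 131 CPM in knockout libraries (log2 fold change 1.33 ± 0.12 SE, adjusted p = 0.0119, edgeR). Por, the reductase that feeds electrons to cytochromes P450, was at 185 ± 53.9 against 569 ± 45.6 CPM (SD, n = 3 each), with 223 CPM as the highest wild type and 526 CPM as the lowest knockout value (log2 fold change 1.62 ± 0.21 SE, adjusted p = 0.0348, edgeR). Neither passed with the clock score as a covariate, where the log2 fold changes were 1.26 and 1.21 (adjusted p = 0.206 for both, edgeR), or without wild type library 1 and knockout library 2 together (1.22 and 1.45, adjusted p = 0.09 and 0.0509, edgeR). With 1 library left out, the adjusted p of Nr1i3 by edgeR ran from 0.00626 to 0.0671, above the threshold without wild type library 2, and that of Por from 0.0184 to 0.0837, above it without wild type library 2 or any of the knockout libraries. The related receptor Nr1i2 (PXR), Nfe2l2 (NRF2) and its inhibitor Keap1 were at 0.28 ± 0.14, 0.21 ± 0.12 and -0.08 ± 0.10 (log2 fold change, SE) and did not pass.

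Among members known to be induced by CAR activators, more were fitted lower than higher. Of 15 listed, 12 were tested, 4 fitted higher (50.3% of all tested genes) and 8 lower, with a median log2 fold change of -0.26. Without overlap, 1 was higher (10.7% of all tested genes) and 4 were lower (10.1%). The higher gene was Ugt1a1 and the lower ones Gstm2, Gstm3, Gstm4 and Ugt2b35. Of 11 members known to be induced through NRF2, 10 were tested, 2 fitted higher and 8 lower, with a median of -0.36, against 0.00 over all tested genes. By edgeR 0 members of either list passed (0.216% of all tested genes), with 5 and 4 at an unadjusted p under 0.05 (15.4%) and 3 and 3 called by DESeq2 (3.5%). Both lists hold Gsta1, Gsta2, Gsta4, Gstm1, Gstm2, Gstm3, Gstm4 and Ugt2b35, so their counts are largely the same genes.

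No gene that supplies the conjugating cofactors passed by edgeR, and in each of the 3 lists 2 genes were at an unadjusted p under 0.05 (15.4% of all tested genes), which is 33.3%, 28.6% and 16.7% of the tested genes for UDP-glucuronic acid, PAPS and glutathione. DESeq2 called 1, 0 and 2 genes (3.5% of all tested genes). For UDP-glucuronic acid, 6 genes were tested at a median log2 fold change of -0.09. Ugdh, which makes UDP-glucuronic acid, was at 210, 196 and 196 CPM in wild type and at 198, 148 and 144 CPM in knockout libraries, with overlap (-0.30 ± 0.13 SE, adjusted p = 0.323 by edgeR). For PAPS, 7 genes were tested at a median of 0.08. Of its synthases, Papss2 was at 182, 212 and 143 CPM against 216, 293 and 206 CPM and Papss1 at 20.7, 18.4 and 17.5 CPM against 9.94, 16.3 and 9.48 CPM, so the more abundant gene stood higher on average with overlap and the scarcer lower without it. The log2 fold changes were 0.41 ± 0.18 and -0.67 ± 0.20 (SE, adjusted p = 0.314 and 0.175 by edgeR). For glutathione, 12 genes were tested at a median of -0.10. Gclc, the catalytic subunit of the rate-limiting ligase, overlapped at 348 ± 85.1 and 258 ± 74.7 CPM. The methionine cycle genes Mat1a, at 2287 ± 446 and 3711 ± 825 CPM, and Ahcy, at 184 ± 16.3 and 267 ± 54 CPM, did not overlap (SD, n = 3 each). Their adjusted p values by edgeR were 0.175 and 0.144, and DESeq2 called both higher.

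Other conjugating enzymes were tested in 24 of 25 cases, at a median log2 fold change of 0.07, and 0 passed by edgeR, with 5 at an unadjusted p under 0.05 (20.8% against 15.4% of all tested genes) and 2 called by DESeq2 (8.33% against 3.5%). As3mt, the arsenic methyltransferase, was at 37.8, 31.6 and 35.8 CPM against 47.3, 46.3 and 55.1 CPM, without overlap, a log2 fold change of 0.50 ± 0.11 (SE, adjusted p = 0.0994 by edgeR, 0.0107 by DESeq2). The membrane-bound Mgst1, a glutathione transferase of another fold, overlapped at 4001 ± 297 and 3779 ± 564 CPM (SD, n = 3 each).

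Deconjugating enzymes numbered 6, at a median of -0.03, with 0 past the threshold by edgeR, 0 by DESeq2 and 1 at an unadjusted p under 0.05 (16.7% against 15.4% of all tested genes). Arsb had the lowest p among them (log2 fold change -0.22, adjusted p = 0.269, edgeR) and Ggt5 the next (0.36, adjusted p = 0.575, edgeR). Of 11 transporters of conjugates 0 passed by edgeR, 5 were at an unadjusted p under 0.05 (15.4% of all tested genes) and 2 were called by DESeq2 (3.5%), at a median of 0.08. Slco1a4, an uptake carrier, was at 15.2, 23.2 and 11.9 CPM against 33.1, 25.4 and 46.0 CPM (1.05 ± 0.27 SE, adjusted p = 0.137, edgeR), and Abcc2, the main export pump for conjugates into bile, at 602 ± 37.1 and 763 ± 50.6 CPM (SD, n = 3 each).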

How the data were processed

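RNA sequencing read counts per gene symbol, whole numbers with no normalization, were deposited as 1 file per library. Tools listed in the submitters' processing notes are HTSeq, TopHat2 2.0.8b and CASAVA 1.8.2; 2 builds, hg19 and mm9, are listed without a role. No source used here gives the annotation or strand setting. Reads outside genes (9.65% to 12.5% of uniquely placed reads) and uniquely placed reads fitting several genes (0.594% to 0.662%) were left out. Alignments that were not unique were left out too. They numbered 1.49 to 2.65 per gene count, with the most in knockout library 2. Counts were tested with edgeR 4.0.16 (R 4.3.3): filterByExpr with a minimum count of 10, TMM scaling, a quasi-likelihood model with genotype only, 2-sided, Benjamini-Hochberg adjustment over 12522 genes, threshold 0.05. SE were derived from the F statistic. CPM use TMM-adjusted library sizes. No pair of libraries agreed within sampling noise (chi-square of 23.1 or more per degree of freedom). Members and lists were chosen with earlier results of these data known.

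Named in full were, in each family, the 6 members with the highest mean CPM and the 4 with the lowest p, tested members of the regulation and sex lists, and from other lists the genes past the threshold or the 2 with the lowest p. Outside this rule, and picked with values in view, are Gstt2, Gstt3, Gstm5, Gstm6, Gsto1, Ugt3a1, Ugt2b37, Ugt1a5, Ugt1a6b, Ugt1a10, the untested members, Nr1i2, Nfe2l2, Keap1, Gclc and Mgst1. All 59 members matched the RefSeq gene table of GRCm38.p6. Transcript lengths and 50-base stretches come from GENCODE M21 (GRCm38). On simulated counts for this comparison over 12522 genes, 25.4% of genes changed 1.5-fold, 67.2% of those changed 2-fold and 95.5% of those changed 4-fold were recovered. In the same simulation 13 genes without a change were called as well. Alternatives were other scalings and filters, DESeq2 1.42.0, limma-voom (limma 3.58.1), the replicate number as a block, a clock score as a covariate (prior count 2), and libraries left out. The planned comparison of proteins was not run, and the values of some listed genes are not reported here.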

Additional observations from a re-analysis of the deposited data

How the results depend on the processing

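Of 600 values of the 40 tested members under alternatives, 570 kept their direction and their side of the threshold, 7 were past it only under the alternative (6 with DESeq2, and Sult1a1 with no filter on low counts), and 23 turned sign. The number of members called was 0 except 1 with no filter and 6 with DESeq2. The number of genes called, 27, was 133 with no filter, 438 with DESeq2, 1 with the replicate block, 1 with the clock score, 1 without wild type library 1 and knockout library 2 together, and 3 to 36 with 1 library left out (5 without wild type 1, 4 without wild type 2, 3 without knockout 2, 13 without knockout 3). Replicate numbers did not pair the libraries: same-numbered libraries had correlations of -0.08, -0.10 and -0.04 in their deviations, and with the replicate block 0 members were called. Nr1i3 and Por, followed through the same alternatives after seeing the data, were at 1.32 and 1.66 with the replicate block (adjusted p = 0.0539 and 0.0585, edgeR).

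Sign changes, whose cause was not tested, came with each library left out singly, most often with knockout library 2. With 1 library left out, log2 fold changes ran from -0.02 to 0.23 for Gstk1 (lowest without wild type 3), -0.39 to 0.03 for Gstp1 (highest without knockout 3), -1.58 to 2.44 for Gstp2 (lowest without knockout 1), -0.27 to 0.08 for Sult1c2 (highest without wild type 2), -0.29 to 0.03 for Gstm6 (highest without knockout 3), -0.02 to 0.11 for Gsto1 (lowest without wild type 1) and -0.18 to 0.26 for Ugt1a5 (lowest without wild type 3). With the lowest value without knockout 2, they ran from -0.01 to 0.14 for Gstz1, -0.06 to 0.36 for Sult1b1, -0.22 to 0.94 for Sult2a7, -0.30 to 0.31 for Ugt2b1 (also -0.02 without wild type 2), -0.06 to 0.18 for Ugt2b34 and -0.05 to 0.09 for Ugt2b36. Without wild type 1 and knockout 2 together, they were -0.0025 for Gstz1, -0.02 for Gsto1, -0.10 for Sult1b1, -0.16 for Ugt2b1, -0.04 for Ugt2b34 and -0.08 for Ugt2b36. Ugt2b36 was at -0.01 with total-count scaling and -0.04 with the clock score, and Gsto1 at -0.09 with the clock score.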
